A study of Macaca mulatta with 10 samples.

Results

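Actin cytoskeleton genes were followed in the RNA of Tr1 cells (type 1 regulatory CD4+ T cells) of 10 rhesus monkeys. The 10 genes were taken by symbol from the 26484 genes of the count table. They were ACTB and ACTG1, which encode the cytoplasmic actins, and CFL1, PFN1, TMSB4X, TMSB10, CORO1A, ARPC2, ARHGDIB and MYH9, which encode proteins that act on actin. Each gene passed the filter of at least 10 counts summed over the libraries, as did 14168 genes in all.

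The cells came from 5 Cohort B monkeys (13EP12, 13EP8, 14HP26, 14HP31 and 15CP6), labelled without ADL infusion, and 5 Cohort C monkeys (13EP5, 14HP33, 14HP24, 15CP1 and 15CP4), labelled with ADL infusion. ADLs are leukocytes of the islet donor, fixed with ethylcarbodiimide so that they undergo apoptosis. Monkeys of both cohorts had been made diabetic with streptozotocin, had received islet allografts, and had been given transient immunosuppression with the antagonistic anti-CD40 antibody 2C10R4, rapamycin, soluble TNF receptor and an anti-IL-6 receptor antibody. The labels give no age for the single monkeys. Each library is 1 monkey, so the spread between libraries includes that between animals. Blood cells were frozen, thawed, rested overnight and sorted as CD4+Cd49b+Lag3+. The labels tie sampling to rejection in Cohort B and to a set study length in Cohort C, so the infusions and the occasion of sampling cannot be told apart. By the study's own listing, monkeys 13EP12 and 13EP8 of Cohort B had no rejection.

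Actin exists as free monomers and as filaments, and a moving or stimulated T cell keeps exchanging one form for the other. Thymosins (TMSB4X, TMSB10) hold monomers in reserve, profilin (PFN1) feeds them to growing filament ends, the Arp2/3 complex (with its subunit ARPC2) starts branches, and cofilin (CFL1) severs old filaments. Coronin 1A (CORO1A) binds filaments and the Arp2/3 complex, and non-muscle myosin IIA (MYH9) pulls on filaments. In T cells this machinery shapes migration and the contact with antigen-presenting cells.

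The libraries differed widely in depth. Total counts ranged from 6076 to 1392157 in Cohort B and from 66485 to 5895609 in Cohort C. At least 1000000 counts were found in 4 libraries, those of monkeys 13EP12 and 13EP8 in Cohort B and 13EP5 and 15CP1 in Cohort C. The MTRNR2L genes, a family of near-identical copies of mitochondrial sequence, took 3.09 to 28.8% of the counts of Cohort B libraries and 3.29 to 87.0% of those of Cohort C, with the highest share in monkey 14HP33. The library of monkey 14HP31 was the shallowest. Counts on the 8 T cell markers exceeded 3 in 9 of the 10 libraries, with 0 in monkey 14HP31. Of the sort markers, CD4 had 2002 counts in 6 libraries, ITGA2 (CD49b) 68 in 4 and LAG3 38 in 3. Levels are given as CPM, the count divided by the TMM-scaled library size in units of 1000000. The TMM factors ran from 0.0725 in monkey 14HP33 to 4.23 in monkey 14HP31, so CPM in these libraries depends strongly on the scaling. On this scale 3 counts, taken as the floor of a library, equalled 0.623 CPM in monkey 15CP1 and 119 CPM in monkey 14HP31. In such bulk samples, fewer cells of a type and less RNA per cell cannot be told apart.

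All 10 genes had over 3 counts in each of the libraries of at least 1000000 counts, and in that of monkey 14HP24, which had 136954 counts. In Cohort B, 9 genes were over 3 counts in monkey 15CP6, 4 in monkey 14HP26 and 0 in monkey 14HP31. In Cohort C, 4 were over 3 counts in monkey 14HP33 and 5 in monkey 15CP4. The mean number per library was 6.60 ± 4.45 in Cohort B and 7.80 ± 3.03 in Cohort C (SD, n = 5 each). The ranges overlapped.

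**Figure D1:**
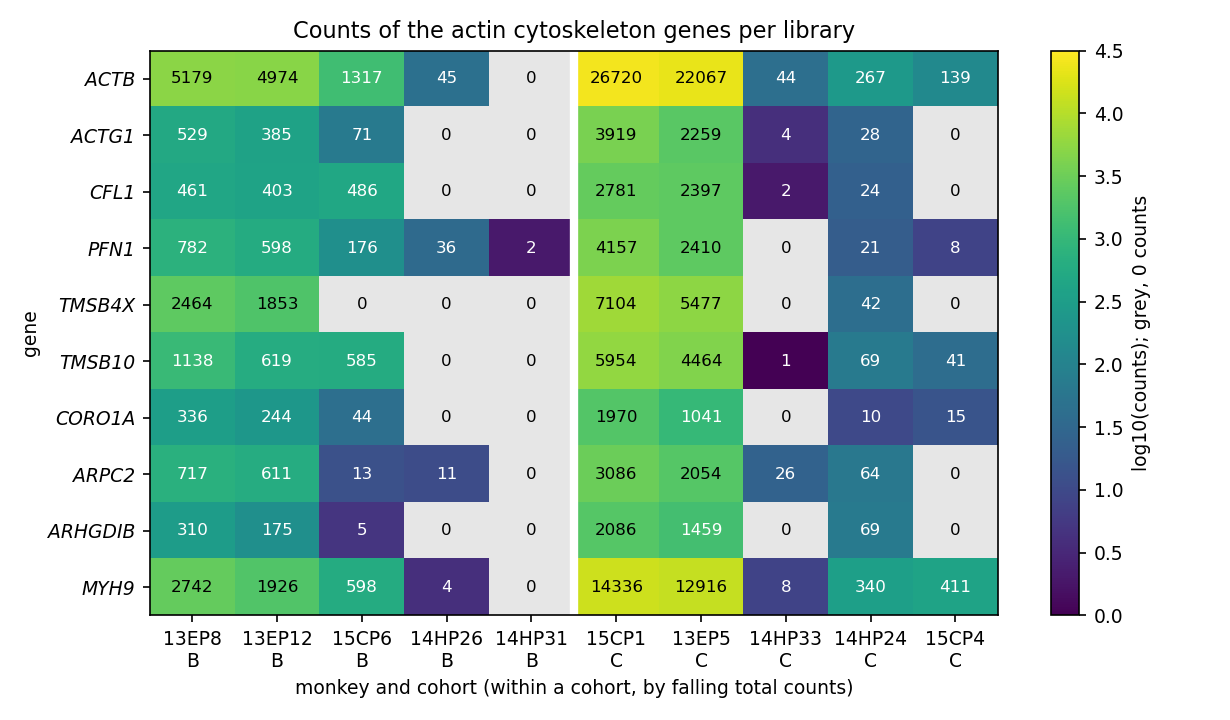
Deposited counts of the 10 actin cytoskeleton genes (rows) in each monkey's library (columns, Cohort B on the left and Cohort C on the right, each by falling total counts). The number is the count, the colour its log10, and grey marks 0. The columns of 13EP8, 13EP12, 15CP1, 13EP5 and 14HP24 have no grey cell, and that of 14HP31 holds only 2 counts, on PFN1.

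Depth alone did not order the detection. If every library had held only 6076 counts, the number of genes expected with a count would have been 8.07 in monkey 14HP24 (136954 counts) and 2.43 in monkey 14HP26 (113884 counts). It would have been 0.49 in monkey 14HP33, whose total was 968423, and 1 in monkey 14HP31 itself. The 10 genes together took 1.02, 1.10, 0.118, 0.0390 and 0.953% of the counts of monkeys 13EP12, 13EP8, 14HP26, 14HP31 and 15CP6, with the MTRNR2L genes left out of the total. In Cohort C they took 1.75% in monkey 13EP5, 0.0674% in 14HP33, 0.895% in 14HP24, 1.26% in 15CP1 and 1.63% in 15CP4. The libraries of 14HP26 and 14HP31 in Cohort B and 14HP33 in Cohort C therefore lay below all others. The exact (Clopper-Pearson) 95% interval was 0.0538 to 0.0833% in monkey 14HP33 and 0.00472 to 0.141% in monkey 14HP31, against 1.51 to 1.77% in monkey 15CP4. These intervals cover counting error only. Whether PCR copies of a molecule were counted as separate reads is not known, and such copies would make the intervals too narrow.

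Of the 100 values (10 genes in 10 libraries), 25 were 0, with 16 in Cohort B and 9 in Cohort C. None of these fell in the libraries of at least 1000000 counts. In 20 of the 25, over 3 counts would have been expected from the gene's median share in those libraries, with the MTRNR2L genes left out of the totals. The largest such gap was TMSB4X in monkey 15CP6, with 0 counts where 571 would have been expected. At the floor of 3 counts, a count of 0 among all 455470 allows a share of up to 0.000659%, and TMSB4X took 0.120 to 0.177% of all counts in the libraries of at least 1000000 counts. Gaps of 208 and 134 expected counts followed, for TMSB4X in monkeys 14HP33 and 14HP26. PFN1 was at 0 in monkey 14HP33, with 82.9 counts expected. The libraries with zeros had few genes of any kind with a count. These numbered 4848 in 15CP6, 2753 in 14HP26, 1659 in 14HP33, 891 in 15CP4 and 465 in 14HP31. The libraries of at least 1000000 counts had 8900 to 15068, and that of 14HP24, with no zero among the 10, had 3348. Whether zeros were more frequent in the 10 than in other genes of like level was not tested.

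The cohorts were compared gene by gene with edgeR's quasi-likelihood test on all 14168 genes, which asks whether Tr1 cells differed in expression with and without ADL infusion. Of the 10 genes, 7 had a positive log2 fold change (Cohort C over Cohort B) and 3 a negative one, and in each gene the ranges of the cohorts overlapped. None was called at a Benjamini-Hochberg adjusted p under 0.05, where 0 genes (0.0%) were called in the whole table (2 with DESeq2, neither of them among the 10). The study's RNA methods give a rule of a fold change of 1.5 or more with an unadjusted p under 0.01. Its statistics paragraph names another, with limma and an adjusted p. At the first rule, 911 of all genes (6.43%) were called, 152 higher and 759 lower in Cohort C, and 0 of the 10. At an unadjusted p under 0.05, 2923 genes (20.6%) passed, and again 0 of the 10. With edgeR's filterByExpr, a stricter filter on sparse genes, 59 of 3414 genes passed and 0 of the 10. Their unadjusted p ran from 0.404 (ARHGDIB) to 0.995 (PFN1) and their adjusted p from 0.924 to 0.9999. The median log2 fold change of the 10 was 0.53. That of all genes tested was 0.16, and 53.5% of them were positive. Standard errors of 1.70 to 1.98 left wide intervals: the approximate 95% interval of ACTB ran from -2.89 to 3.76.

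ACTB, the major cytoplasmic actin of leukocytes, was the most abundant of the 10 by counts. It stood at 4316, 3960, 265, 0 and 2914 CPM in monkeys 13EP12, 13EP8, 14HP26, 14HP31 and 15CP6 of Cohort B. In Cohort C it stood at 6880, 627, 1542, 5545 and 868 CPM in monkeys 13EP5, 14HP33, 14HP24, 15CP1 and 15CP4. The highest values were those of the deep Cohort C libraries, but the other three lay below 13EP12, 13EP8 and 15CP6 of Cohort B. The log2 fold change was 0.43 ± 1.70 (SE; edgeR adjusted p = 0.9998), and it was -0.22 without monkey 13EP5. By rank, ACTB was the 5th gene of its library in monkey 13EP5, the 11th in 15CP1, the 12th in 13EP12 and the 454th in 14HP26.

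ACTG1, the second cytoplasmic actin, had 385, 529, 0, 0 and 71 counts in Cohort B and 2259, 4, 28, 3919 and 0 in Cohort C, in the same order of monkeys. Its CPM reached 404 in Cohort B (monkey 13EP8) and 813 in Cohort C (monkey 15CP1), with 0 in both cohorts. The log2 fold change was 0.94 ± 1.91 (SE; edgeR adjusted p = 0.9998).

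Among the monomer binders, TMSB4X had counts in 5 of the 10 libraries. Its CPM was 1608 and 1884 in monkeys 13EP12 and 13EP8 and 0 in 14HP26, 14HP31 and 15CP6, and 1708, 0, 242, 1474 and 0 in Cohort C. Its log2 fold change was -0.03 ± 1.83 (SE; edgeR adjusted p = 0.9998). TMSB10, its close relative, stood at 537, 870, 0, 0 and 1294 CPM in Cohort B and at 1392, 14.2, 398, 1236 and 256 CPM in Cohort C. Monkey 15CP6 thus held the highest TMSB10 level of Cohort B and no count on TMSB4X. PFN1 was the one gene with a count in each Cohort B library, at 519, 598, 212, 79.1 and 389 CPM. In Cohort C it stood at 751, 0, 121, 863 and 49.97 CPM, so that the lowest and the highest value were both in Cohort C. The value of monkey 14HP31 rested on 2 counts, under the floor. The log2 fold changes of TMSB10 and PFN1 were 0.28 ± 1.84 and -0.01 ± 1.87 (SE).

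CFL1, which encodes cofilin 1, had its highest level in Cohort B, at 1075 CPM in monkey 15CP6. The other Cohort B values were 350, 352, 0 and 0 CPM in monkeys 13EP12, 13EP8, 14HP26 and 14HP31. Cohort C stood at 747, 28.5, 139, 577 and 0 CPM, and the log2 fold change was -0.26 ± 1.88 (SE; edgeR adjusted p = 0.9998). Without monkey 15CP6 it was 0.62.

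ARPC2 and CORO1A belong to filament branching. ARPC2 was at 530, 548, 64.7, 0 and 28.8 CPM in Cohort B and at 640, 370, 370, 640 and 0 CPM in Cohort C. Monkey 14HP33, low for most of the other genes, was near monkey 14HP24 in the CPM of ARPC2, on 26 and 64 counts. This rests on their TMM factors, 0.0725 and 1.27. As a share of all counts, ARPC2 took 0.00268 and 0.0467% in these libraries. CORO1A, a coronin of blood cells, was at 212, 257, 0, 0 and 97.4 CPM in Cohort B and at 325, 0, 57.7, 409 and 93.7 CPM in Cohort C. The log2 fold changes were 0.77 ± 1.89 for ARPC2 and 0.63 ± 1.95 for CORO1A (SE).

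ARHGDIB had the largest fold change of the 10 in this fit. MYH9 was ahead of it with DESeq2 (1.946 and 1.505), with limma-voom (2.84 and 0.95) and with DESeq2's size factors (1.95 and 1.51). The same held with MTRNR2L genes left out and library size only (1.90 and 1.77), and with the replicate block (2.43 and 1.51). With limma-voom, ACTB (1.82), TMSB10 (1.74), ARPC2 (1.15) and TMSB4X (1.04) were also ahead of ARHGDIB. With the replicate block, TMSB4X (2.77) was ahead of MYH9, and TMSB10 (1.57) was also ahead of ARHGDIB. The CPM of ARHGDIB was 152, 237, 0, 0 and 11.1 in Cohort B and 455, 0, 398, 433 and 0 in Cohort C. The values of 13EP5, 14HP24 and 15CP1 lay above all of Cohort B, and the other two were 0. The log2 fold change was 1.65 ± 1.98 (SE; edgeR adjusted p = 0.924).

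MYH9, the heavy chain of non-muscle myosin IIA, was at 1671, 2097, 23.5, 0 and 1323 CPM in Cohort B and at 4027, 114, 1963, 2975 and 2567 CPM in Cohort C. The libraries of 13EP5, 15CP1 and 15CP4 lay above each Cohort B library, 14HP24 lay below 13EP8 alone, and 14HP33 lay below 13EP12, 13EP8 and 15CP6. The log2 fold change was 1.18 ± 1.77 (SE; edgeR adjusted p = 0.993), 0.76 without monkey 13EP5 and 1.49 without monkey 14HP33. MYH9 was the 8th gene by counts in monkey 15CP4 and the 13th in monkey 13EP5.

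**Figure D2:**
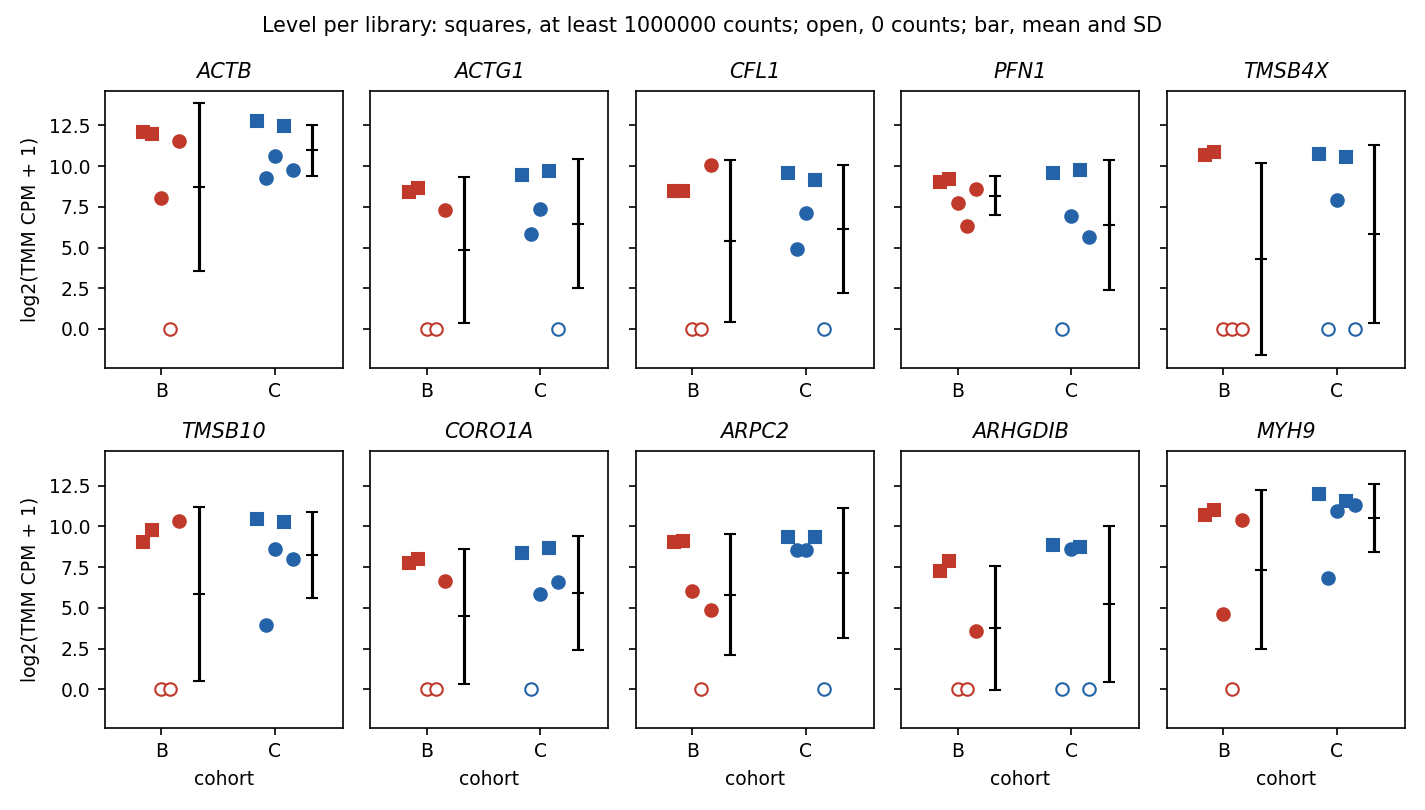
Level of each gene as log2(TMM CPM + 1) in the 5 Cohort B and 5 Cohort C libraries. Squares are libraries of at least 1000000 counts, open symbols have 0 counts, and the bar gives the mean and SD of the cohort (n = 5). In every panel the cohorts overlap, and the squares lie closer together than the circles.

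The libraries were also reassigned to the cohorts in all possible ways, in a two-sided exact permutation test of log2(CPM + 1) on the same genes. Of all genes 34 (0.24%) had an unadjusted p under 0.05, and 0 of the 10, whose p ran from 0.183 (MYH9) to 0.921 (TMSB4X). With 5 libraries against 5, no p below 0.00794 can be reached. The mean was higher in Cohort C in 9 genes, by 3.18 in MYH9 (7.35 ± 4.89 in Cohort B and 10.53 ± 2.09 in Cohort C, SD) and by 2.25 in ACTB. The share of all genes with a higher mean is not given here. Without monkey 14HP31, which had 0 counts on ACTB, the difference in ACTB was 0.07. When a library was left out, that in MYH9 ran from 1.34 to 4.10. The difference in PFN1 was -1.80 (8.18 ± 1.19 and 6.38 ± 3.97, SD). After adjustment over all genes, every p was 1.

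In the libraries of at least 1000000 counts the spread was far smaller. Over these 4 libraries the highest CPM was 1.21 times the lowest in ARPC2, 1.28 times in TMSB4X, 1.66 in PFN1 and 1.74 in ACTB. It was 2.41 in MYH9, 2.43 in ACTG1, 2.59 in TMSB10 and 3.00 in ARHGDIB. Both Cohort C libraries lay above both Cohort B libraries in 9 of the 10 genes, TMSB4X being the one that overlapped, while 4364 of 13274 genes (32.9%) showed this order. With edgeR on these libraries alone, 117 of all genes (0.881%) and 0 of the 10 were called at the same rule. The log2 fold change was 1.04 ± 0.48 in ARHGDIB (SE; edgeR adjusted p = 0.800), 0.88 ± 0.42 in ACTG1 and 0.75 ± 0.36 in MYH9. It was 0.10 ± 0.41 in ARPC2 and -0.28 ± 0.36 in TMSB4X. The median of the 10 was 0.62 and that of all genes tested 0.32. Each cohort had 2 monkeys here, and those of Cohort B were the ones listed above without rejection. Within Cohort B, depth and rejection therefore cannot be told apart. The fit to these libraries thus leaves out the other Cohort B monkeys, and its contrast differs from that of the fit to all libraries in more than depth.

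**Figure D3:**
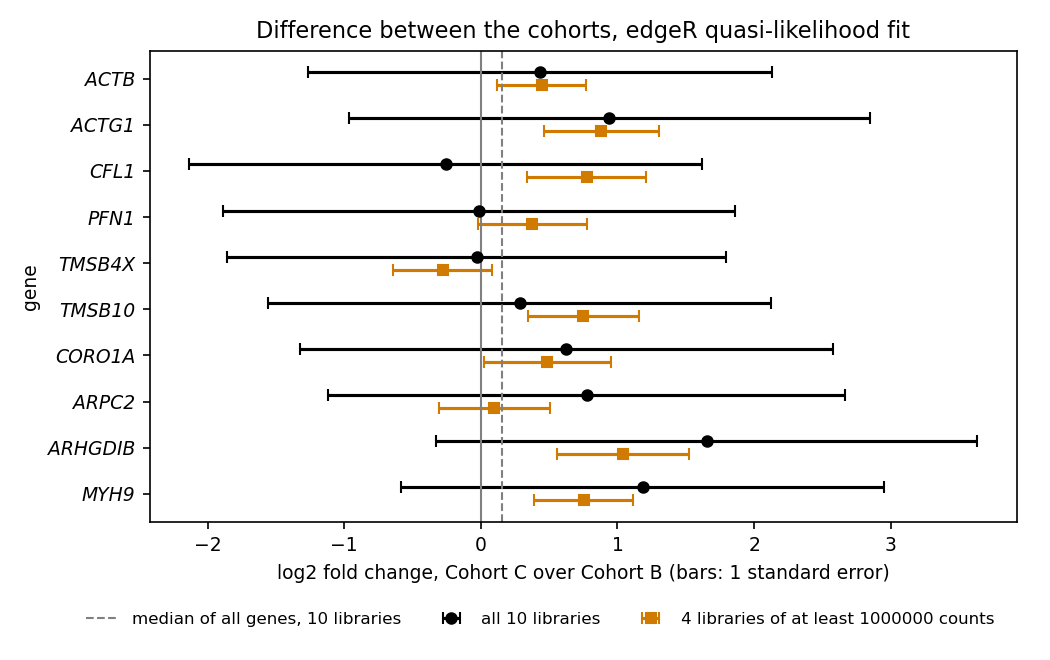
Log2 fold change of each gene, Cohort C over Cohort B, by the edgeR quasi-likelihood fit to all 10 libraries (black circles) and to the 4 libraries of at least 1000000 counts (orange squares), with bars of 1 standard error. The dashed line is the median of all genes over 10 libraries, 0.16. The black bars are several times as long as the orange ones and each black bar crosses 0.

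Leaving out 1 library turned the direction in several genes. Without monkey 13EP5, 5 of the 10 were higher in Cohort C, and without monkey 14HP31, 6. Without monkey 14HP33 or without monkey 15CP4, each of the 10 was higher, with medians of 0.75 and 0.73. The medians of all genes tested were 0.32 and 0.40 in these fits. Without monkey 13EP5 the median was -0.05 in the 10 and -0.43 in all genes. Without monkey 14HP31 it was 0.22 in the 10 and -0.04 in all genes. The libraries of monkeys 15CP6, 14HP33 and 15CP1 carry an index suffix in their labels. With that suffix as a term in the fit, 8 of the 10 were higher, and none was called.

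Markers of other blood cells were present and moved with some of these libraries. Of 5 platelet markers 4 had counts (GP9 was at 0), summing to 0 to 26 counts per library in Cohort B and 0 to 885 in Cohort C. The 885 counts, or 276 CPM, were in monkey 13EP5, which also had the highest ACTB and MYH9 levels. The 6 monocyte markers, each with counts, summed to 0 to 466 counts in Cohort B and 0 to 2030 in Cohort C, or up to 356 and 421 CPM, with the highest sum in monkey 15CP1. The 4 B cell markers, each with counts, reached 100 counts in Cohort B and 273 in Cohort C, which came to at most 76.5 and 56.7 CPM. The 5 CD8 and NK cell markers, each with counts, reached 257 and 256 counts, or 223 and 53.1 CPM, and thus a higher CPM in Cohort B. Erythroid markers had up to 188 counts (416 CPM) in Cohort B and 93 (1325 CPM) in Cohort C, with ALAS2 at 0. The 93 counts were in monkey 14HP33, whose TMM factor of 0.0725 raises its CPM. These cells also express actin genes, and their part in the levels was not tested.

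Ratios between paired genes within a library do not depend on its size. The ratio of ACTB to ACTG1 counts was 12.9, 9.79 and 18.5 in monkeys 13EP12, 13EP8 and 15CP6 of Cohort B. It was 9.77, 11, 9.54 and 6.82 in monkeys 13EP5, 14HP33, 14HP24 and 15CP1 of Cohort C. The log2 ratio was 3.73 ± 0.46 in Cohort B (SD, n = 3) and 3.19 ± 0.30 in Cohort C (SD, n = 4), a difference of -0.54 (two-sided exact permutation test, p = 0.114). With 35 possible assignments, no p below 0.0286 can be reached. The ranges overlapped, and libraries with 3 counts or fewer on either gene were left out. Among those left out, monkey 15CP4 of Cohort C had 139 counts on ACTB and 0 on ACTG1. The exact 95% interval of its ratio starts at 37.2, above the ratio of every library in the test. With FPKM in place of counts the difference was -1.83, with 3 libraries in each cohort (exact permutation p = 0.400, where no p below 0.1 can be reached).

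The thymosins did not keep a fixed ratio. TMSB4X had 2.99 and 2.17 times the counts of TMSB10 in monkeys 13EP12 and 13EP8, 1.23 times in 13EP5, 1.19 times in 15CP1 and 0.609 times in 14HP24. The exact 95% intervals of the first pair, 2.73 to 3.28 and 2.02 to 2.32, lay above those of 13EP5 and 15CP1, 1.18 to 1.28 and 1.15 to 1.24. With 2 Cohort B and 3 Cohort C libraries over the floor on both genes, no test was made. Monkey 15CP6 of Cohort B went the other way, with 0 counts against 585, which allows a ratio of up to 0.00633. Monkey 15CP4 of Cohort C had 0 against 41, which allows up to 0.0941.

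**Figure D4:**
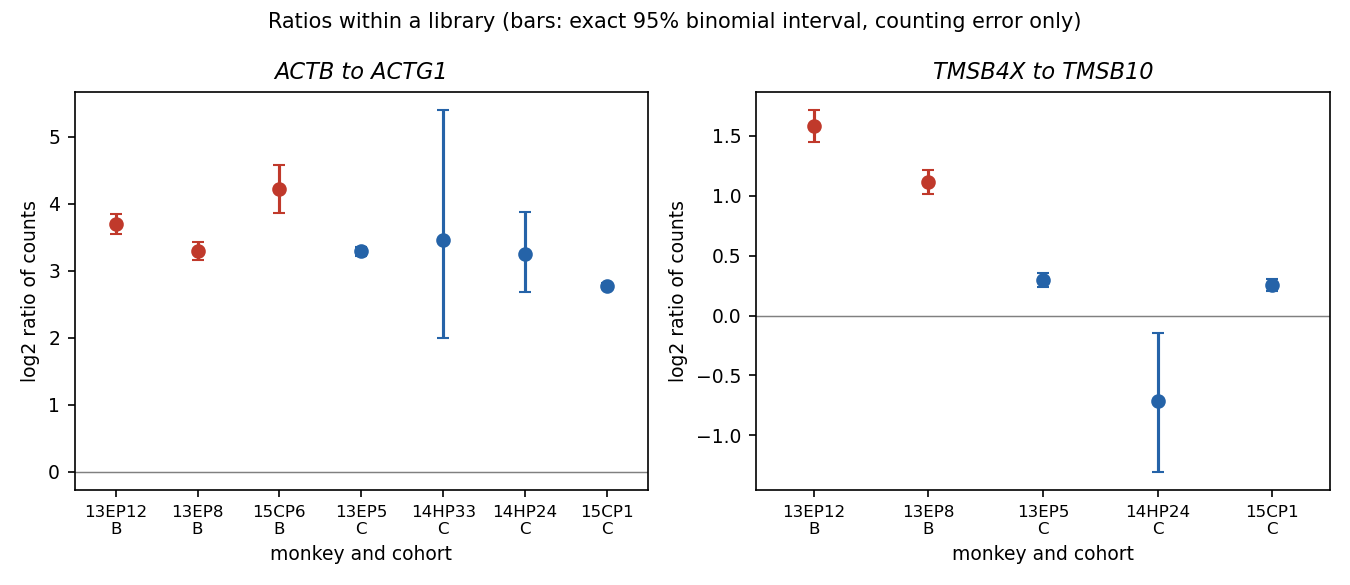
Log2 ratio of ACTB to ACTG1 counts (left) and of TMSB4X to TMSB10 counts (right) in each library with over 3 counts on both genes, Cohort B in red and Cohort C in blue. Bars are exact 95% binomial intervals, for counting error only. On the left the cohorts overlap, and on the right 13EP12 and 13EP8 (1.58 and 1.11) lie above the 3 Cohort C libraries (0.30 or less).

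MYH9 and ACTB were compared within libraries after their values had been seen, as a description. MYH9 had 0.387, 0.529, 0.0889 and 0.454 times the counts of ACTB in monkeys 13EP12, 13EP8, 14HP26 and 15CP6. In Cohort C the ratio was 0.585, 0.182, 1.27, 0.537 and 2.96 in monkeys 13EP5, 14HP33, 14HP24, 15CP1 and 15CP4. The libraries of 14HP24 and 15CP4 were the ones in which myosin counts exceeded actin counts.

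Levels between genes were compared as FPKM, which the authors scaled by transcript length, in the 4 libraries of at least 1000000 counts. The median was 3367 FPKM for TMSB4X, 3007 for ACTB, 2784 for TMSB10, 739 for PFN1 and 461 for ARPC2. It was 314 for MYH9, 259 for CFL1, 237 for ACTG1, 156 for CORO1A and 104 for ARHGDIB. Within a library, TMSB4X and ACTB differed by less than the SD of their log2 difference over the 4 libraries, as did ARPC2 and MYH9, and ACTG1 and CORO1A. The other neighbours in this order differed by more than that SD. MYH9, second to ACTB by counts in these libraries, came sixth per length.

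**Figure D5:**
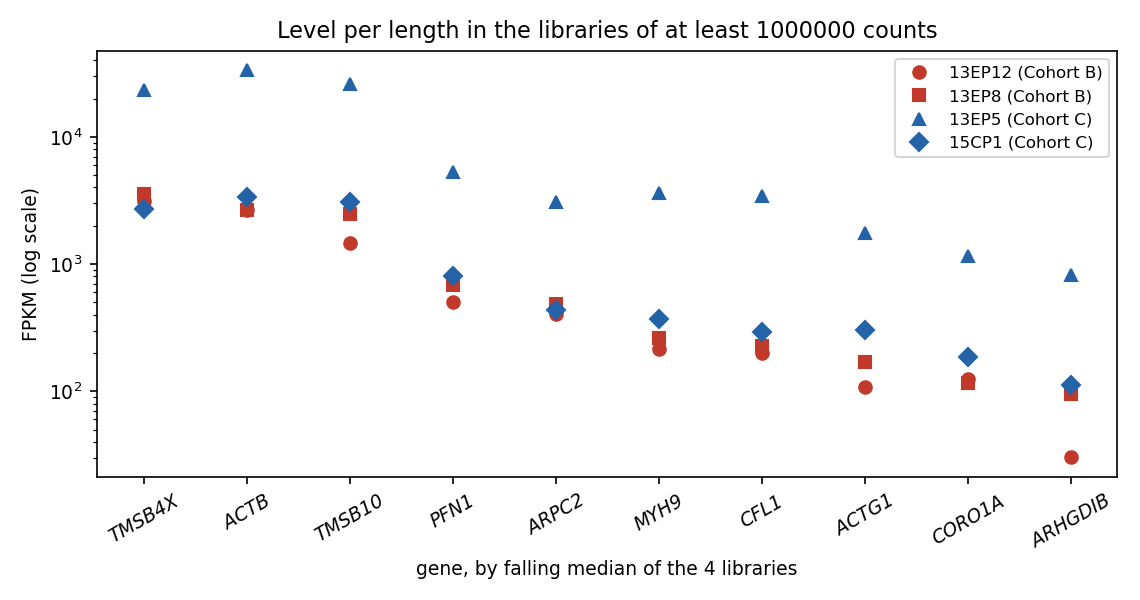
FPKM (log axis) of the 10 genes in the 4 libraries of at least 1000000 counts, ordered by the median, Cohort B in red and Cohort C in blue. Monkey 13EP5 lies above the other libraries in each gene, by 5.77 to 11.7 times against monkey 15CP1.

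The FPKM and the count table differed in scale between libraries. The summed FPKM of the 10 genes was 8.77 times as high in monkey 13EP5 as in monkey 15CP1, and the summed CPM 1.18 times. ACTG1 was 68.9 times as high in monkey 13EP12 as in monkey 15CP6 by FPKM (107 and 1.56 FPKM) and 2.13 times by CPM. Of the 100 values, 5 had counts, of at most 15, and were listed at 0 FPKM, and none had FPKM without counts. With limma on log2(FPKM + 1), 0 of 10307 genes (0.0%) had an adjusted p under 0.05 and 15 an unadjusted p under 0.05, none of them among the 10. Of the 10, 8 were higher in Cohort C, with log2 differences from -0.96 (PFN1) to 2.81 (MYH9; limma adjusted p = 0.9996), and the median of all genes was 0.74.

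Actin genes have many near-identical copies, and the counting options for reads with several matches are not given in the sources used here. Counts on 5 of the 7 listed copies of ACTB summed to 654, or 1.08% of those on ACTB, and 549 of them were on POTEF, which carries an actin-like domain. The share was 3.35% for ACTG1, on pseudogenes, and 4.82% for CFL1, of which CFL2, a gene of its own, held 314 of 316 counts. It was 0.130% for TMSB4X, and 1 count for PFN1. Reads that the counting may have left out cannot be seen in the table. The rhesus reads had been mapped to the human genome, and how well each gene's reads matched it was not tested.

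Of 2858 genes with a count in at least 6 libraries, those most like ACTB by Spearman correlation of CPM over the 10 libraries were SFPQ (1), STK17B (0.98), RPL18 (0.98), ELF4 (0.98) and KIAA0100 (0.98). Of the other actin cytoskeleton genes, CORO1A came closest (0.95, at rank 60), followed by ACTG1 (0.93). The median over all genes compared was 0.69, and ACTB correlated with the total counts of the library at 0.88. Between the 10 genes the 45 pairs ranged from 0.52 to 0.95, with a median of 0.81. The points share depth and zeros, so these values describe the libraries.

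The wider actin pathway was read from a list of 103 other genes in 8 roles, of which 100 could be tested. Of these 67 were higher and 33 lower in Cohort C, with a median log2 fold change of 0.40, beside 0.16 over all genes tested. At the rule of 1.5-fold and an unadjusted p under 0.01, 0 were called higher and 1 lower, beside 6.43% of all genes tested. This was PLS3, a filament-bundling plastin, at -7.99 ± 2.66 (SE; edgeR adjusted p = 0.141). Its counts were 0, 34, 301, 0 and 0 in Cohort B and 14, 0, 0, 0 and 0 in Cohort C, so that monkey 14HP26 held 86.2% of them. The call was lost without any one of monkeys 13EP12, 13EP8, 14HP26, 15CP6 and 15CP1. At an unadjusted p under 0.05, 4 of the 100 passed, beside 20.6% of all genes tested. They were PLS3 and a further 3 that were higher in Cohort C and are named after their values were seen. RHOC had 125 and 118 counts in monkeys 13EP5 and 15CP1 and 0 elsewhere (edgeR adjusted p = 0.141). PFN2, a second profilin, had 9 and 32 counts in those libraries and 0 elsewhere (edgeR adjusted p = 0.147). CTTN, which encodes the branch stabiliser cortactin, had 105 of its counts in monkey 13EP5 and 12 in 14HP33 (edgeR adjusted p = 0.147). RHOC and PFN2 thus had counts in the deepest 2 libraries alone. The share of all genes that passed depends on how sparse genes are filtered. With edgeR's filterByExpr, a stricter filter, 0 of 70 pathway genes passed an unadjusted p under 0.05, beside 59 of 3414 genes.

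By role, 12 of 19 genes of the Arp2/3 complex and its activators were higher in Cohort C, with a median log2 fold change of 0.18. ACTR3, the most abundant of them, was at -0.13 ± 1.88 (SE). Of monomer binders and cofilin regulators 7 of 12 were higher (median 0.34), with the cofilin phosphatase SSH2 at -0.28 ± 1.94. Capping and severing genes were higher in 6 of 8 (median 0.90), with the capping protein subunit CAPZB at 1.09 ± 1.92. Of the other coronins 2 of 3 were higher (median 1.97), while CORO1C, the most abundant, was at -1.82 ± 2.08. Cross-linkers and membrane linkers were higher in 12 of 16 (median 0.27), with filamin A (FLNA) at 0.83 ± 1.83. Formins and Ena/VASP genes were higher in 7 of 11 (median 0.54), with DIAPH1 at 0.89 ± 1.87, and myosins and tropomyosins in 7 of 13 (median 0.18), with TPM3 at 1.17 ± 1.91. None of these abundant genes passed an unadjusted p under 0.05.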

How the data were processed

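RNA of flow-sorted Tr1 cells was sequenced from 5 Cohort B and 5 Cohort C monkeys as 50 bp paired-end reads. Mapping by the authors used HISAT2 2.0.2 and human hg38 as reference. The authors deposited raw counts per gene and FPKM values from Cuffdiff 2.2.1. Options of the counting are not given in the sources used here. The tables held 0 other columns of values.

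Counts were fitted with edgeR 4.0.16 in R 4.3.3 (TMM, quasi-likelihood, at least 10 counts summed over libraries) on all genes, with Benjamini-Hochberg adjustment over all of them. The standard error came from the fold change and the F statistic. Exact permutation used log2(CPM + 1), and limma 3.58.1 used log2(FPKM + 1) where the mean FPKM reached 1. Intervals were Clopper-Pearson at 95% (scipy 1.17.1, Python 3.11.15), and the floor was 3 counts. The fits were run on simulated data. A pass of the edgeR fit was required only at a spread between libraries (dispersion) far below that of these data. The common dispersion of these data was 4.74.

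The 10 genes, the pathway list and the markers were chosen with earlier results of these data known. Named were the 10 genes, pathway genes called (up to 3 in each direction), otherwise the most abundant gene of each role, and the 5 genes most like ACTB. Alternatives covered limma-voom, DESeq2 1.42.0, other filters and normalizations, the replicate block, the index suffix, deep libraries only, and leaving out each library. Libraries were numbered within a cohort, and monkeys with the same number are different animals. The results of 1 role of the pathway list and of 1 marker are not reported here.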

Additional observations from a re-analysis of the deposited data

Results flagged for a closer look

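In 24 groups of 5 libraries examined for a library far from the others, 2 were marked, and chance marks about 1 in 20. In Cohort C, ARPC2 was at 0 on the log2(CPM + 1) scale in monkey 15CP4, a gap of 0.915 of the cohort's range. In Cohort C, MYH9 was at 6.84 on that scale in monkey 14HP33, a gap of 0.798 of the range. These libraries had 66485 and 968423 counts, and MTRNR2L genes took 43.4 and 87.0% of them. Whether that bears on either value was not tested.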

How the results depend on the processing

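In 23 alternatives to the count fit, 13 of them other settings and 10 leaving out a library each, 0 of the 10 genes were called or passed an unadjusted p under 0.05. The number of all genes called at an unadjusted p under 0.01 and at least 1.5-fold, 911, was 1625 with MTRNR2L genes left out and library size only, 1525 with DESeq2's size factors, 341 with edgeR's exact test, 117 in deep libraries only, 98 with the index suffix, 69 with DESeq2, 67 with limma-voom and 10 with filterByExpr (3414 genes tested). It was 0 with the replicate block, which pairs different animals, and 9 genes then passed an unadjusted p under 0.05. It ran from 76 (without monkey 13EP5) to 695 when a library was left out, and was 143 without monkey 15CP1 and 515 to 597 without 13EP8, 14HP26, 15CP6, 14HP33 or 14HP24. At an adjusted p under 0.05, 2 genes were called with DESeq2, 1 with MTRNR2L genes left out and library size only, 1 in deep libraries only, and 0 to 1 when a library was left out (1 without 13EP5, 15CP1 or 15CP4). The pathway genes called, 1, became 2 with DESeq2's size factors or with MTRNR2L genes left out and library size only. They became 0 with DESeq2, limma-voom, filterByExpr, the replicate block or the index suffix, and 0 to 2 when a library was left out. The cause of these shifts was not tested, except that fewer genes or libraries entered some fits. The median log2 fold change of all genes ran from -0.31 (DESeq2) to 0.33 (every gene with at least 1 count) in the other settings.

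Some directions reversed. CFL1 was at 0.10 with limma-voom, 1.03 with the replicate block and 0.77 in deep libraries. PFN1 was at 0.0055 with every gene of at least 1 count and 0.38 in deep libraries. TMSB4X was at 1.04 with limma-voom, 2.77 with the replicate block and 0.48 with the index suffix. The FPKM difference of CORO1A was -0.34 with a pseudocount of 0.1. When a library was left out, log2 fold changes ran from -0.22 to 0.75 in ACTB, -0.98 to 0.62 in CFL1, -0.65 to 0.39 in PFN1, -0.88 to 0.64 in TMSB4X and -0.26 to 0.75 in TMSB10. The difference of mean log2(CPM + 1) ran from -0.60 to 2.28 in CFL1 and -0.13 to 3.11 in ARPC2. That of log2(FPKM + 1) ran from -0.060 to 3.55 in ACTB, -0.51 to 2.39 in ARPC2, -2.12 to 0.81 in CFL1, -1.39 to 1.20 in CORO1A and -2.32 to 0.77 in PFN1. The ratio of ACTB to ACTG1 ran from -0.63 to -0.40 where it could be tested. Without monkey 13EP12, 13EP8 or 15CP6 it had 2 Cohort B libraries and no test.

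The replicate numbers do not pair the libraries. Deviations of same-numbered libraries correlated at 0.38, -0.29, 0.02, -0.43 and -0.04. With the replicate block 9 of the 10 genes were higher in Cohort C and none was called. Depth limits these results: in the library of monkey 14HP31, where 3 counts equal 119 CPM, a level below that could not be told from 0.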
